A study of Mus musculus with 12 samples.

Results

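The 41 genes described here carry N-linked glycosylation from its substrates to the trimmed glycan. They were taken as a named module of 41 among the 18193 genes with a probe set of their own on the array, and each was represented by its brightest probe set, judged on the mean of the 12 arrays. They fall into 5 steps. UDP-GlcNAc supply has 4 genes, dolichol and sugar donors 10, assembly of the dolichol-linked oligosaccharide 12, the oligosaccharyltransferase 7, and trimming with the folding check and branching 8. All 41 were measured.

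In N-linked glycosylation a sugar tree is built step by step on the lipid dolichol in the membrane of the endoplasmic reticulum (ER), first on its cytosolic face and then, after a flip, inside the lumen. The oligosaccharyltransferase moves the finished tree to asparagines of nascent proteins. Glucosidases and mannosidases then trim it, and the trimming steps tell the lectin chaperones whether the protein has folded, which matters in liver because hepatocytes secrete most glycoproteins of the plasma. Tunicamycin (TM) is a nucleotide sugar analogue that blocks DPAGT1, the enzyme of the first dolichol-linked step, so that unglycosylated proteins misfold and the ER becomes stressed. ATF6a is an ER membrane protein that is cleaved under stress to release a transcription factor.

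Livers came from wild-type mice and from Atf6a-/- mice, which lack ATF6a in the whole animal, 34 h after an injection into the peritoneum. Tunicamycin was given at 1 mg/kg in a dextrose solution of 150 mM, which alone served as vehicle. Each of the 4 groups (wild-type vehicle, Atf6a-/- vehicle, wild-type TM and Atf6a-/- TM) held 3 animals with 1 array each. Age and sex varied and are not given for single animals, all animals were fasted for some hours before sacrifice, and the RNA was that of whole liver homogenate. One label field gives a shorter time than the titles and the protocol, whose 34 h is used.

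Levels are log2 values on the scale of the deposited table, so a difference of 1 is a doubling. Genes were called higher or lower when the limma fit across all 12 arrays gave an adjusted p under 0.05 and the difference exceeded 1.5-fold. Errors of levels are SD over 3 animals, and errors of differences are the SE of that fit.

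Several features of the arrays bear on these values. On the first principal component of all genes, which held 71.1% of the variance, vehicle arrays lay between -47.3 and -42.8, Atf6a-/- TM arrays between 87.0 and 92.8, while wild-type TM animal 2 (21.5) was set off from animals 1 (-9.77) and 3 (-9.13) of its group. Counts without that animal are given beside the full ones. Among 9 measured hepatocyte markers, all well above the array median, 7 were called lower after TM in Atf6a-/- and 2 in wild-type livers. Their mean level ran from 13.5 to 13.7 in wild-type vehicle, from 13.4 to 13.7 in Atf6a-/- vehicle, from 13.0 to 13.5 in wild-type TM and from 12.1 to 12.4 in Atf6a-/- TM animals. The 4 measured neutrophil markers had mean levels of 4.79 to 5.26 in vehicle, 5.87 to 6.51 in wild-type TM and 6.48 to 7.80 in Atf6a-/- TM animals. Only 2 were called higher in Atf6a-/- livers and 1 in wild-type livers. From Atf6a-/- vehicle to Atf6a-/- TM, S100a8 went from 4.85 to 9.52 and S100a9 from 5.33 to 9.07. Csf3r (5.52 to 5.59) and Mmp8 (4.37 to 4.79) were not called. The mean of the 8 Kupffer cell markers ranged from 7.89 to 8.45 in vehicle, 7.45 to 8.02 in wild-type TM and 7.66 to 8.16 in Atf6a-/- TM animals, but its members moved both ways. In Atf6a-/- livers 4 were called lower (Vsig4 by most, -2.24) and 2 higher (Cd68, 3.07, and Marco, 1.58), and in wild-type livers 3 lower and 1 higher. Of 6 endothelial and 6 stellate cell markers, 2 each were called lower in Atf6a-/- livers and 0 and 1 in wild-type livers. Beside all these marker counts, 12.8% of all genes were called lower and 15.2% higher after TM in Atf6a-/- livers. In wild-type livers the shares were 3.86% and 3.45%. The marker counts were not tested against these shares. Of 2 measured red cell markers, Alas2 was called lower in Atf6a-/- livers (-2.72) and Slc4a1 was not called (-0.25). Alas2 already varied from 7.72 to 10.46 among the wild-type vehicle animals. Of 4 lymphocyte markers, Cd3g and Ms4a1 lay under the highest array median (4.71) on all arrays. In whole tissue, fewer cells of a type and less RNA per cell cannot be told apart, and the part of these markers in the results was not tested. Hybridisation spike-ins averaged 9.14 to 9.55 on vehicle, 8.85 to 9.18 on wild-type TM and 8.78 to 8.82 on Atf6a-/- TM arrays. The actin 3' minus 5' difference, a sign of RNA quality, was 0.879 to 1.00 on Atf6a-/- TM arrays and 0.997 to 1.32 on the others. Xist, transcribed in female cells, was at 12.2 to 12.4 in animal 1 of both vehicle groups and of Atf6a-/- TM and at 5.37 to 6.68 in all others, so that wild-type TM was the 1 group without such an animal. The part of the actin difference was not tested either. The spike-ins were used for an alternative scaling, given below, but the cause of their difference between groups was not tested.

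The targeted gene did not follow the labels in every group. Atf6 was at 8.48 in wild-type vehicle and 6.78 in Atf6a-/- vehicle livers, a difference of -1.71 ± 0.15 (adjusted p = 0.0061, lower). After TM it was at 9.51 in animals labelled wild-type and 9.55 in animals labelled Atf6a-/- (0.04 ± 0.15, adjusted p = 0.92). Which part of the gene was deleted is not given in the sources used here, so its probe sets cannot check the genotype of the TM arrays, and all genotype directions below rest on the labels. Among ER stress genes singled out after their values were seen, Pdia4 (-1.96, adjusted p = 4.5e-06), Derl3 (-1.72, adjusted p = 0.0010) and Dnajb11 (-1.55, adjusted p = 5.0e-05), all known to depend on ATF6a for their full induction, were lower in animals labelled Atf6a-/- TM than in those labelled wild-type TM. Hsp90b1 (-0.43, adjusted p = 0.088) and Dnajc3 (-0.33, adjusted p = 0.31) were not called, and Ppp1r15a, a regulator of translation under stress, was higher (2.45, adjusted p = 0.00028).

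More members rose than fell after TM in both genotypes, on the deposited scale and under both other scalings given here. In wild-type livers 24 of 41 members were called higher and none lower, where 3.45% of all genes were called higher and 3.86% lower. In Atf6a-/- livers 30 of 41 were called higher, where 15.2% of all genes were, and 1, Alg1, was called lower, where 12.8% were. All members but Dpm3 had a mean above the highest array median, and 12042 genes did. Among those brighter genes 5.18% were higher and 5.68% lower in wild-type livers, and 22.0% and 19.0% in Atf6a-/- livers. The median difference over the members was 1.02 for the wild-type response, where the median of all genes was -0.02, and 0.91 for the Atf6a-/- response, where it was -0.01. Of the members, 22 were called higher in both genotypes, 2 (Rpn2 and Prkcsh) in wild-type livers and not in Atf6a-/-, and 8 in Atf6a-/- livers and not in wild-type. Without wild-type TM animal 2, 21 members were called higher in wild-type livers and the median difference was 0.79. With the arrays shifted to equal mean levels of Btf3 and Ppia, the reference genes of the study's PCR, the Atf6a-/- counts became 18 higher and 5 lower, where 7.85% and 42.0% of all genes were called. That shift moved the median of all genes by -0.52 in the Atf6a-/- response, and with it in place the member median there was 0.40. A shift to equal spike-ins moved the median of all genes by 0.35 for the wild-type and 0.48 for the Atf6a-/- response and gave 32 and 35 members higher, where 12.4% and 34.5% of all genes were. The arrays of these responses also enter the comparison between genotypes after TM and the interaction, so the counts of the 4 comparisons are not independent.

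**Figure D1:**
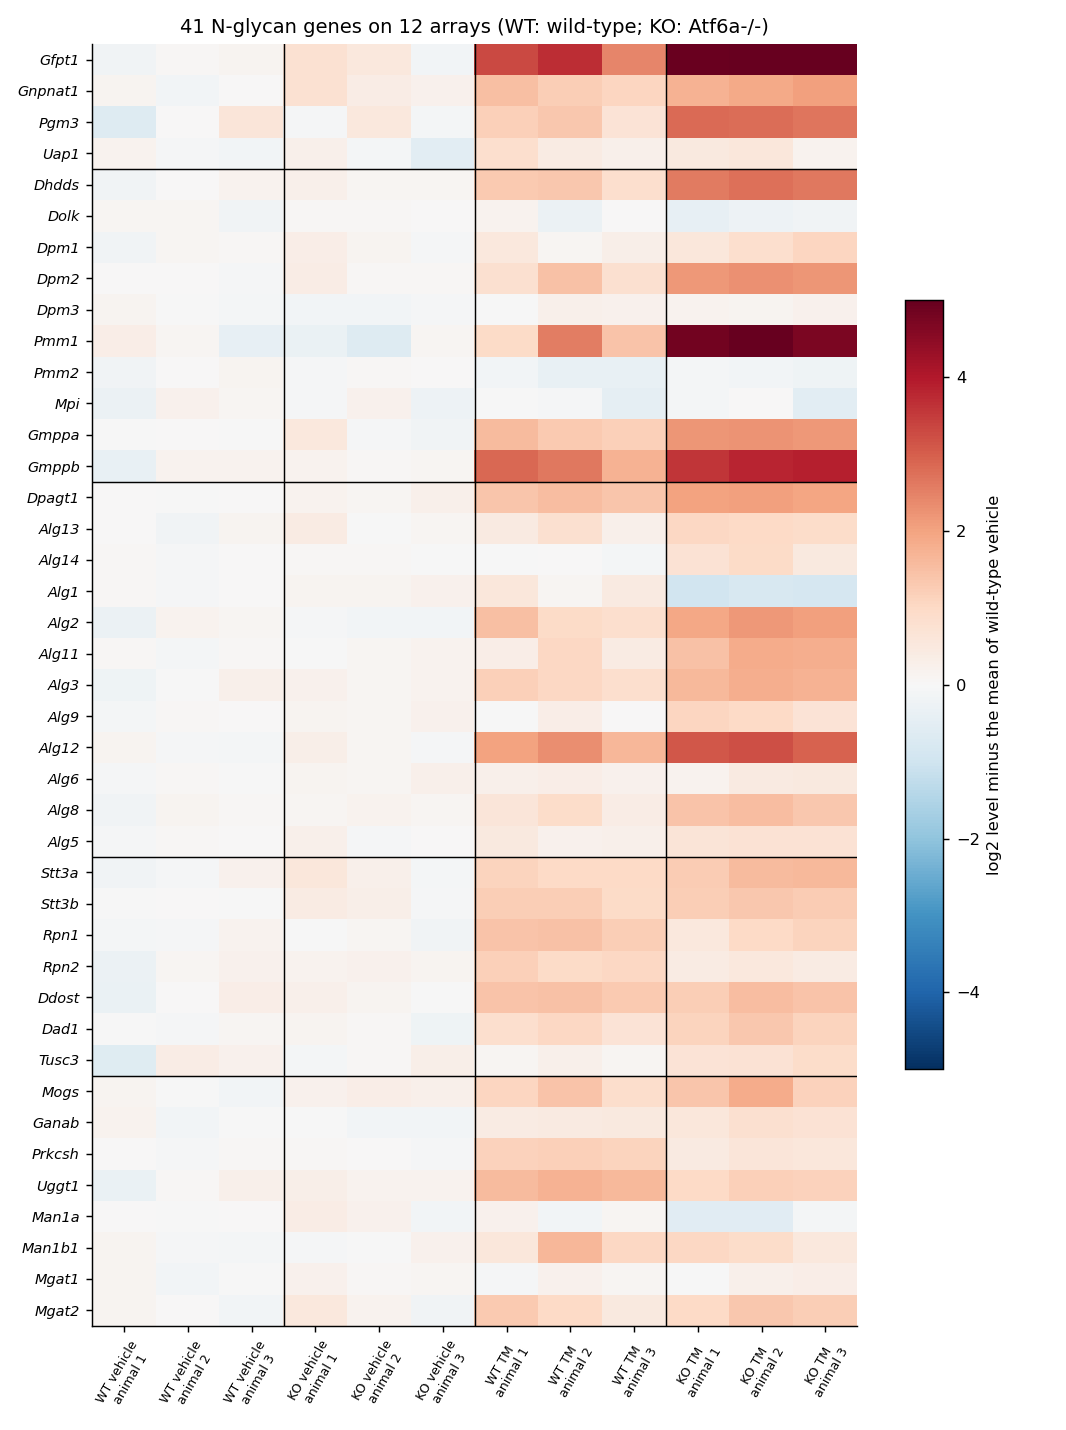
Level of each of the 41 genes (rows, in pathway order, with lines between the 5 steps) on each of the 12 arrays (columns), as log2 level minus the mean of the wild-type vehicle animals, so that red is above and blue below that mean. Both TM groups are red over most rows, Gfpt1 and Pmm1 are darkest in the Atf6a-/- TM animals, and Alg1 turns clearly blue in those animals alone (WT stands for wild-type and KO for Atf6a-/-).

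Without TM no difference between genotypes passed the test. None of the 41 members was called between Atf6a-/- vehicle and wild-type vehicle livers, where 0.0% of all genes were called higher and 0.0055% (1 gene, Atf6) lower. The member differences ran from -0.30 to 0.45, with 33 above and 8 below 0 and a median of 0.13. In their steps Gnpnat1 (0.45, adjusted p = 1.0), Pmm1 (-0.30), Stt3a (0.24) and Mogs (0.28) had the differences farthest from 0, and Dpagt1 differed by 0.17 ± 0.08. With 3 animals a group these values do not show that the genotypes were equal.

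On the deposited scale, 15 members of the early steps were called higher after TM in animals labelled Atf6a-/- than in those labelled wild-type. No member of the late steps passed that call with its chosen probe set. Among all genes 11.3% were called higher and 8.45% lower, among the brighter genes 16.2% and 12.7%, and 3 members were called lower. The 15 belonged to the 26 genes of supply, donors and assembly, and of the 3 lower genes Alg1 belonged to assembly, Rpn2 to the oligosaccharyltransferase and Prkcsh to trimming. The interaction, the Atf6a-/- response minus the wild-type response, was called higher for 12 members, where 7.56% of all genes were, and lower for 4, where 6.69% were. Its median was 0.85 over UDP-GlcNAc supply, 0.57 over dolichol and sugar donors, 0.59 over assembly, -0.05 over the oligosaccharyltransferase and -0.16 over trimming, beside 0.01 over all genes.

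Both the counts and the sign of the oligosaccharyltransferase median in the interaction moved with the scaling. With the Btf3 and Ppia shift, which moved the median of all genes by -0.43 between genotypes after TM and by -0.44 in the interaction, the split between genotypes was 8 higher and 8 lower, where 4.67% of all genes were higher and 24.5% lower. In the interaction it was then 4 higher and 6 lower, where 2.46% and 14.3% of all genes were. With the spike-in shift 20 members were higher and 1 lower between genotypes (16.9% and 6.61% of all genes), and 11 higher and 2 lower in the interaction (7.85% and 5.17%). The interaction medians became 0.40, 0.13, 0.15, -0.49 and -0.60 in the order of the steps with the first shift and 0.97, 0.70, 0.72, 0.08 and -0.03 with the second. The first 3 steps thus had a positive median under both shifts and the oligosaccharyltransferase changed sign. Without wild-type TM animal 2 the last medians were 0.00 for the oligosaccharyltransferase and 0.02 for trimming. No called member changed sign in any comparison under any alternative. Btf3 itself was called higher after TM in Atf6a-/- livers (1.13 ± 0.13, adjusted p = 2.7e-05).

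Single animals moved the interaction as well. Its count of members higher fell from 12 to 7 without wild-type vehicle animal 2, without Atf6a-/- vehicle animal 3, without wild-type TM animal 3 or without Atf6a-/- TM animal 1, and the last also left 2 members lower in place of 4. Without wild-type TM animal 2 the counts were 12 higher and 3 lower, and 17 higher and 3 lower between genotypes after TM. Without Atf6a-/- TM animal 3 there were 5 members lower between genotypes in place of 3. The median of the interaction ranged from 0.21 to 0.39 with 1 animal left out.

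**Figure D2:**
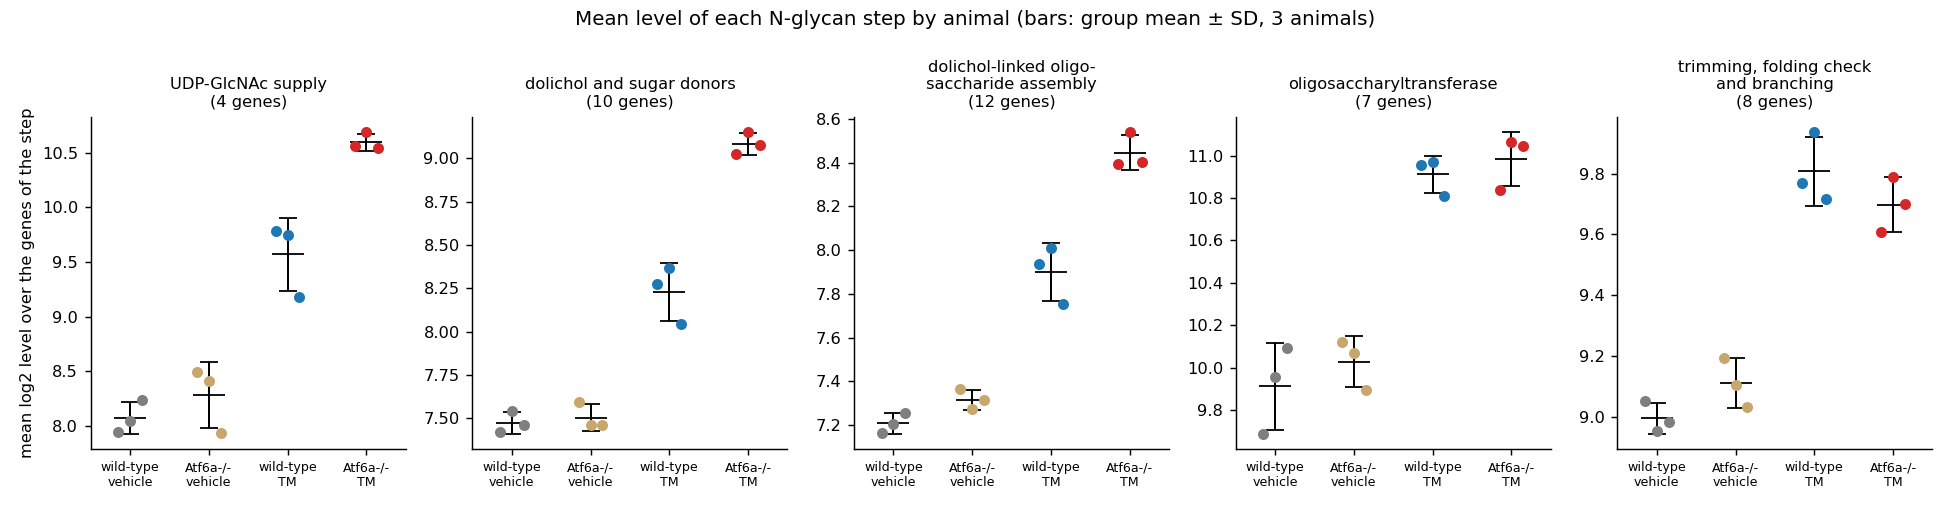
Mean log2 level over the genes of each step, 1 panel per step, with a point per animal and bars for the mean and SD of 3 animals; the vertical axes differ between panels. In the 3 early steps the Atf6a-/- TM animals lie above all wild-type TM animals, while in the oligosaccharyltransferase and trimming panels the TM groups overlap.

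UDP-GlcNAc is the substrate from which DPAGT1 takes the sugar it places on dolichol, and the 4 genes of its supply form the hexosamine pathway. Gfpt1, which makes glucosamine-6-phosphate and sets the rate of the pathway, was at 7.03, 7.26 and 7.36 in the wild-type vehicle animals and at 7.96, 7.74 and 7.07 in the Atf6a-/- vehicle animals. After TM it was at 10.52, 10.93 and 9.65 in wild-type and at 12.14, 12.41 and 12.21 in Atf6a-/- animals. The vehicle groups overlapped, all TM animals lay above them, and all Atf6a-/- TM animals lay above all wild-type TM animals. The rise was 8.86-fold in wild-type livers (3.15 ± 0.29, adjusted p = 7.7e-05) against 25.3-fold in Atf6a-/- (4.66 ± 0.29, adjusted p = 2.9e-07), and the responses differed by 1.52 ± 0.41 (adjusted p = 0.035). The other bright probe set of Gfpt1 gave a larger difference of responses, 2.09, that was not called (adjusted p = 0.072).

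Pgm3, which moves the phosphate on N-acetylglucosamine, rose by 1.08 ± 0.28 in wild-type livers (adjusted p = 0.037) against 2.65 ± 0.28 in Atf6a-/- (adjusted p = 1.5e-05). The Atf6a-/- TM animals were at 10.11, 10.09 and 9.97 and the wild-type TM animals at 8.49, 8.62 and 7.98, with no overlap. The interaction was 1.57 ± 0.39 (adjusted p = 0.024). Its wild-type call was lost without wild-type TM animal 2. Gnpnat1, the acetylating enzyme, rose by similar amounts, 1.26 ± 0.15 and 1.44 ± 0.15 (interaction 0.18, adjusted p = 0.75), and stood 0.63 ± 0.15 higher in Atf6a-/- TM than in wild-type TM livers (adjusted p = 0.012). In both responses and between the TM groups, another bright probe set of Gnpnat1 was not called. The call between the TM groups was also not kept under every scaling or with every single animal left out. Uap1, which makes UDP-GlcNAc itself, was called in no comparison, with differences of 0.50 ± 0.20 and 0.53 ± 0.20 (adjusted p = 0.20 and 0.073).

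The donor step makes dolichol phosphate, GDP-mannose and the mannose carrier. Of its 10 genes, 5 were called higher in wild-type livers and 6 in Atf6a-/-. An interaction was called for 4, all higher. Pmm1, one of 2 phosphomannomutases that turn mannose-6-phosphate into mannose-1-phosphate, had the largest interaction of the module. It was at 6.34, 6.09 and 5.58 in wild-type vehicle and at 5.67, 5.35 and 6.09 in Atf6a-/- vehicle animals. After TM the wild-type animals were at 6.96, 8.56 and 7.43 and the Atf6a-/- animals at 10.82, 11.02 and 10.69. The wild-type TM animals were thus spread over a wide range above the vehicle animals, with animal 2 highest, and the Atf6a-/- TM animals lay together far above them. The rise was 1.64 ± 0.34 or 3.13-fold (adjusted p = 0.013) against 5.14 ± 0.34 or 35.3-fold (adjusted p = 5.1e-07), and the responses differed by 3.50 ± 0.49 (adjusted p = 0.00083). A second probe set of Pmm1 gave 2.02, 5.97 and 3.95 for the same quantities, all called. Pmm2, the paralogue, did not pass in any comparison (-0.30 ± 0.10 for the wild-type response, adjusted p = 0.12, and -0.18 ± 0.10 for the Atf6a-/- response, adjusted p = 0.23). Mpi, which makes the mannose-6-phosphate for both, was at -0.19 and -0.17.

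GDP-mannose is made next. Gmppb, the catalytic subunit of its pyrophosphorylase, was at 7.09, 7.61 and 7.63 in wild-type vehicle and 10.33, 10.06 and 9.18 in wild-type TM animals. It was at 7.61, 7.50 and 7.53 in Atf6a-/- vehicle and 11.03, 11.27 and 11.34 in Atf6a-/- TM animals. The TM groups did not overlap with each other or with vehicle, and the rise was 5.32-fold in wild-type livers (2.41 ± 0.25, adjusted p = 0.00015) against 12.7-fold in Atf6a-/- (3.66 ± 0.25, adjusted p = 5.4e-07). Its interaction was 1.25 ± 0.35 (adjusted p = 0.040, and 0.056 with the replicate number as a block). Gmppa, the regulatory subunit, rose by 1.36 ± 0.16 and 2.12 ± 0.16, stood 0.85 ± 0.16 higher in Atf6a-/- TM than in wild-type TM livers (adjusted p = 0.0026), and had an interaction of 0.75 ± 0.23 that was not called (adjusted p = 0.058), although 2 of its 3 other bright probe sets were.

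Dhdds, the catalytic subunit of the prenyltransferase that builds dolichol, rose by 1.17 ± 0.14 in wild-type livers (adjusted p = 0.00040) against 2.51 ± 0.14 in Atf6a-/- (adjusted p = 1.3e-07), and its interaction of 1.34 ± 0.20 (adjusted p = 0.0012) was called in 2 of its 3 probe sets. Nus1, which encodes the partner subunit and is not among the 41 (it was singled out after its values were seen), rose by 1.09 ± 0.14 and 0.66 ± 0.14, with an interaction of -0.43 ± 0.19 (adjusted p = 0.23). The dolichol-phosphate mannose synthase has 3 subunits that gave unlike values. Dpm2 rose by 1.02 ± 0.16 and 2.03 ± 0.16 (interaction 1.01 ± 0.23, adjusted p = 0.016), and the catalytic Dpm1 rose in Atf6a-/- livers by 0.70 ± 0.15 (adjusted p = 0.0043) and was at 0.30 ± 0.15 in wild-type livers (adjusted p = 0.35). Another bright probe set of Dpm1 was not called in the Atf6a-/- response. Dpm3 lay at 4.23 to 4.63 on all arrays, under the highest array median of 4.71, and its values set no fold. Dolk, the kinase that phosphorylates dolichol, was at -0.02 ± 0.13 and -0.32 ± 0.13 and was not called.

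Assembly adds N-acetylglucosamine, mannose and glucose to dolichol in a fixed order. Of its 12 genes, 5 were called higher in wild-type livers, 10 in Atf6a-/- livers, and 1, Alg1, was called lower in Atf6a-/- livers. Dpagt1, which takes the first step and is the target of the drug, was at 8.56, 8.51 and 8.56 in wild-type vehicle animals and at 8.72, 8.65 and 8.78 in Atf6a-/- vehicle animals. After TM it was at 9.95, 10.09 and 9.93 in wild-type and at 10.54, 10.60 and 10.53 in Atf6a-/- animals. Its animals agreed closely within each group, and no groups overlapped. Dpagt1 rose 2.73-fold in wild-type livers (1.45 ± 0.08, adjusted p = 4.0e-06) against 3.57-fold in Atf6a-/- (1.84 ± 0.08, adjusted p = 3.0e-08). The Atf6a-/- TM livers stood 0.57 ± 0.08 above wild-type TM (adjusted p = 0.00041), 1.48-fold and so just under the fold required for a call, and the interaction was 0.39 ± 0.12 (adjusted p = 0.052). Mfsd2a, which carries tunicamycin into cells, averaged 11.08 ± 0.87 in wild-type vehicle, 10.22 ± 1.16 in Atf6a-/- vehicle, 9.42 ± 0.52 in wild-type TM and 8.51 ± 0.95 in Atf6a-/- TM livers and was called in no comparison. Its response was -1.66 ± 0.62 in wild-type (adjusted p = 0.16) against -1.71 ± 0.62 in Atf6a-/- livers (adjusted p = 0.059).

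Alg13 and Alg14 together add the second N-acetylglucosamine. Alg14 was at 8.77 to 8.95 in the 9 animals of the other groups and at 9.62, 9.83 and 9.36 in the Atf6a-/- TM animals, a rise of 0.69 ± 0.11 in Atf6a-/- (adjusted p = 0.00050) against -0.03 ± 0.11 in wild-type livers. The interaction was 0.72 ± 0.16 (adjusted p = 0.013), and its dimmer probe set gave 0.42, not called. Alg13 rose by 0.83 ± 0.15 in Atf6a-/- livers (adjusted p = 0.0013) and was at 0.50 ± 0.15 in wild-type livers (adjusted p = 0.082), from vehicle levels of 4.32 to 4.90 that lay near the highest array median.

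Alg1, which adds the first mannose, was the only member whose chosen probe set was called lower in a response to TM. It was at 7.56, 7.47 and 7.52 in wild-type vehicle, 7.65, 7.65 and 7.72 in Atf6a-/- vehicle, 8.10, 7.60 and 7.96 in wild-type TM and 6.56, 6.72 and 6.68 in Atf6a-/- TM animals. The Atf6a-/- TM animals were the lowest of all 12, and the wild-type TM animals lay above the wild-type vehicle animals. Alg1 fell 2.03-fold in Atf6a-/- livers (-1.02 ± 0.12, adjusted p = 3.1e-05), was at 0.37 ± 0.12 in wild-type livers (adjusted p = 0.090) and had an interaction of -1.40 ± 0.17 (adjusted p = 0.00031). It has 1 probe set, and its fall in Atf6a-/- livers was -0.54 with the spike-in shift, which was not called.

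The next mannoses are added by Alg2 and Alg11 on the cytosolic face and by Alg3, Alg9 and Alg12 in the lumen. Alg12 rose most of the assembly genes. It was at 5.80, 5.61 and 5.57 in wild-type vehicle, 5.94, 5.76 and 5.59 in Atf6a-/- vehicle, 7.68, 7.99 and 7.33 in wild-type TM and 8.77, 8.87 and 8.62 in Atf6a-/- TM animals. Vehicle animals overlapped and the TM groups did not. The rise was 4.01-fold in wild-type livers (2.00 ± 0.16, adjusted p = 3.0e-05) against 7.95-fold in Atf6a-/- (2.99 ± 0.16, adjusted p = 8.7e-08), with an interaction of 0.99 ± 0.22 (adjusted p = 0.013) that was called in 2 of its 3 probe sets. Alg2 rose by 1.09 ± 0.17 and 2.16 ± 0.17 (interaction 1.07 ± 0.24, adjusted p = 0.013), and Alg3 by 1.02 ± 0.13 and 1.55 ± 0.13 (interaction 0.53 ± 0.19, adjusted p = 0.11). Alg11 and Alg9 were called in Atf6a-/- livers (1.64 ± 0.17 and 0.76 ± 0.12), were at 0.59 ± 0.17 and 0.11 ± 0.12 in wild-type livers (adjusted p = 0.065 and 0.73), and had interactions of 1.05 ± 0.24 and 0.65 ± 0.17 (adjusted p = 0.017 and 0.034).

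Glucose is added last. Alg8 rose by 0.62 ± 0.13 in wild-type livers (adjusted p = 0.013) against 1.31 ± 0.13 in Atf6a-/- (interaction 0.68 ± 0.18, adjusted p = 0.034), and its wild-type call was lost without wild-type TM animal 2. Alg5, which makes the glucose carrier, rose by 0.62 ± 0.10 in Atf6a-/- livers (adjusted p = 0.00049) and was at 0.32 ± 0.10 in wild-type livers. Alg6, which adds the first glucose, was at 0.27 ± 0.10 and 0.20 ± 0.10 and was not called.

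**Figure D3:**
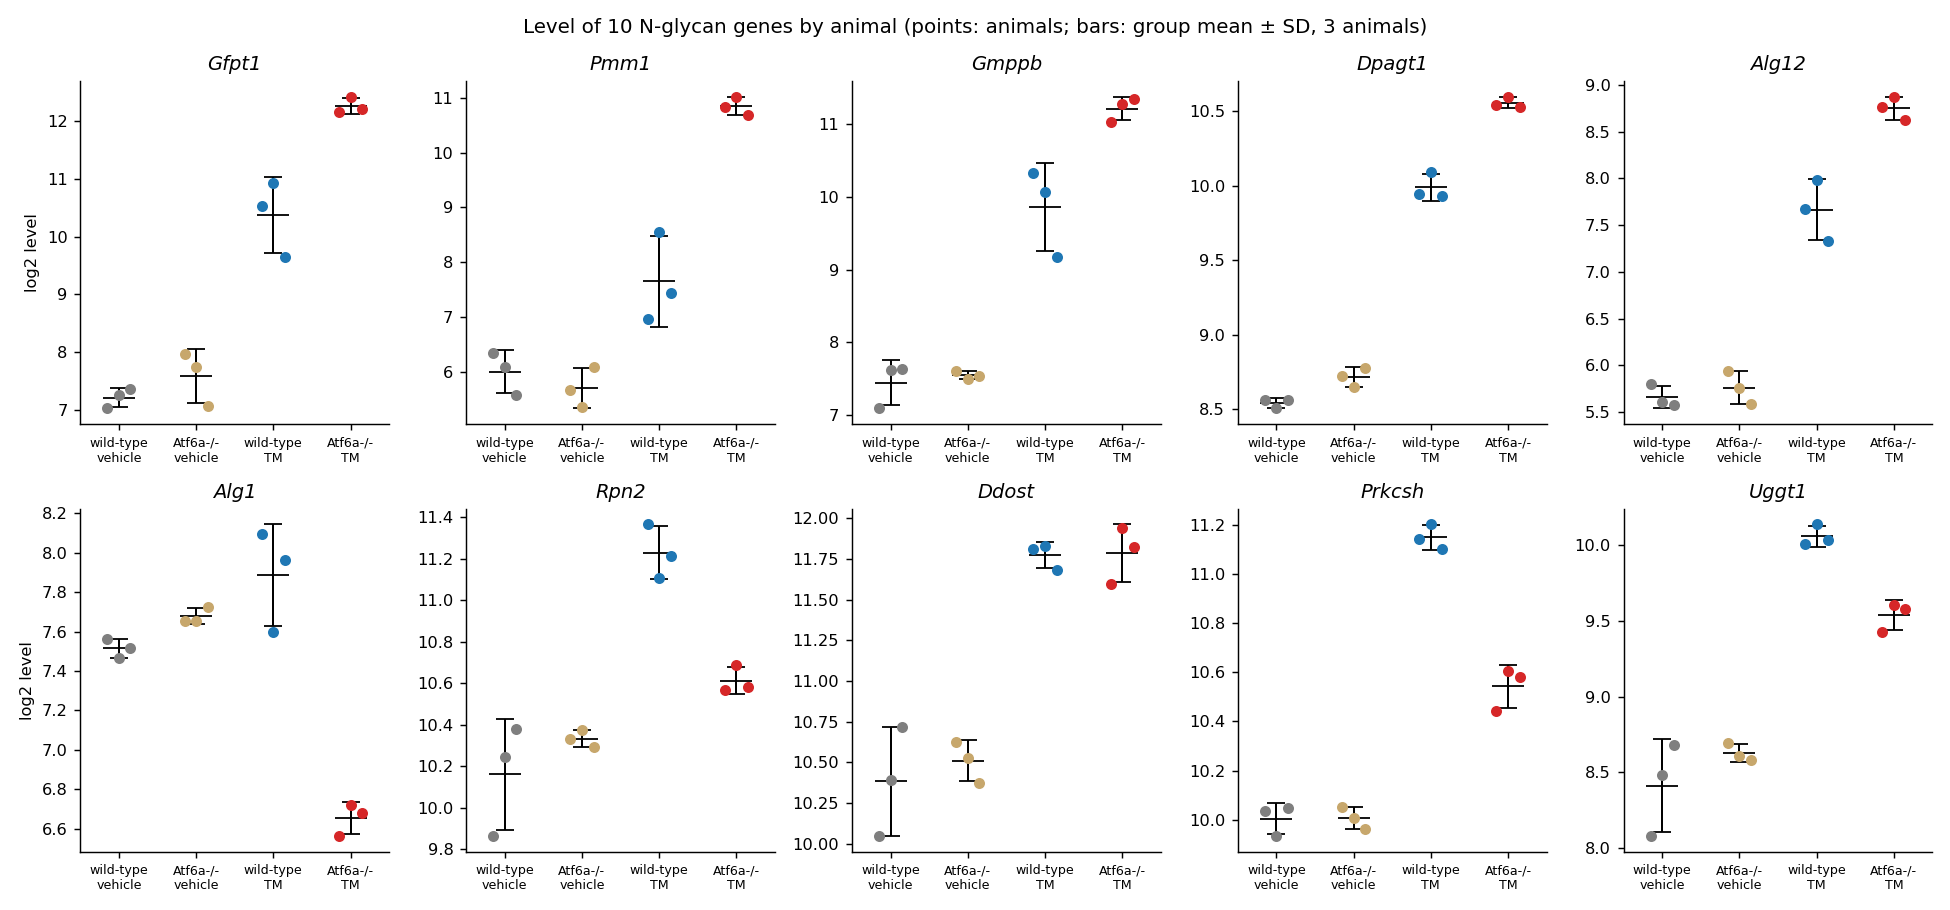
Log2 level of 10 members by animal, with a point per animal and bars for the mean and SD of 3 animals; the vertical axes differ between panels. Gfpt1, Pmm1, Gmppb, Dpagt1 and Alg12 step up from wild-type TM to Atf6a-/- TM, Ddost is level between them, and Rpn2, Prkcsh and Uggt1 step down, while Alg1 falls below its vehicle level in the Atf6a-/- TM animals.

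Since many members rose together, their promoters were read for elements known from ER stress genes. RefSeq gave a promoter window (250 bases before to 50 after the start, build GRCm38.p6) for 35 of the 41 members. Dpagt1, Alg2, Alg11, Gmppb, Gnpnat1 and Tusc3 had no window, so the counts do not cover them. The ER stress response element (ERSE, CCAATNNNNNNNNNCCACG, either strand), which ATF6 and its partner NF-Y are known to bind, was found in 1 of the 35, Alg12, and in 0.137% of 27025 genes with a window. ERSE-II (ATTGGNCCACG) was found in none of the 35 and 0.0444% of genes, the core of the unfolded protein response element (TGACGTGG) in none and 0.714%, and the C/EBP-ATF response element (TTGCATCA) in none and 1.03%. Windows of 3 members are printed 5' to 3' to set the Alg12 element beside the member with the largest interaction (Pmm1) and a trimming gene called lower between genotypes (Prkcsh). They lie at chr15:88819269-88819568 (minus strand), chr15:81960881-81961180 (minus strand) and chr9:22002738-22003037 (plus strand), and capitals mark the fixed letters of the ERSE, whose first base lies at -220 from the start. The windows without capitals hold none of the 4 elements in these letters, which says nothing of sites elsewhere or in other spellings.
Alg12: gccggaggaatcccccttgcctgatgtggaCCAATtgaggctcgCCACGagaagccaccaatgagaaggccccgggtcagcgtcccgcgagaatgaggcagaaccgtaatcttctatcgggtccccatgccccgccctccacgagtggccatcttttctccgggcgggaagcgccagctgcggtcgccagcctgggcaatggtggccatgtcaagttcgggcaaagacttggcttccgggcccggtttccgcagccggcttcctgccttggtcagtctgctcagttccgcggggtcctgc
Pmm1: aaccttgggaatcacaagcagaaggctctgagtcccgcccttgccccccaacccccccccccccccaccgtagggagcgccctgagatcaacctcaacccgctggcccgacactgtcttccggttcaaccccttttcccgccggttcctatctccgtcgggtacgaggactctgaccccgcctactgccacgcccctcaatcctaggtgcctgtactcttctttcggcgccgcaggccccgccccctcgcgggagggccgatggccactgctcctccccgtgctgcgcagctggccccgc
Prkcsh: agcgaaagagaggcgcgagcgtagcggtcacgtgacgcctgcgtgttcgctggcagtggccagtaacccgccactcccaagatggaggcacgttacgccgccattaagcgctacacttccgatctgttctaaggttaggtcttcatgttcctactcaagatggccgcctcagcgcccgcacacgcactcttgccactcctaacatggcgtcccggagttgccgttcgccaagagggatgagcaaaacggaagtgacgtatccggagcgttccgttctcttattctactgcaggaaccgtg

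Of the 7 oligosaccharyltransferase genes, 6 were called higher in wild-type livers, all but Tusc3, and 6 in Atf6a-/- livers, all but Rpn2. The median rise over the 7 was 1.07 for the wild-type response and 1.08 for the Atf6a-/- response. Between genotypes after TM none was called higher and 1, Rpn2, was called lower, and the median of 0.16 became -0.27 with the Btf3 and Ppia shift. The catalytic Stt3a, which works on chains as they enter the ER, rose by 1.02 ± 0.16 and 1.25 ± 0.16. Its Atf6a-/- TM animals all lay above the wild-type TM animals, by 0.47 on average and not called, while 2 of its other probe sets were called higher there (0.73 and 0.65). Stt3b, which works after them, rose by 1.13 ± 0.12 and 1.08 ± 0.12. Ddost was at 10.05, 10.39 and 10.72 in wild-type vehicle, 10.63, 10.53 and 10.38 in Atf6a-/- vehicle, 11.81, 11.83 and 11.68 in wild-type TM and 11.60, 11.94 and 11.82 in Atf6a-/- TM animals. Its TM groups overlapped, and the difference between them was 0.01 ± 0.15 (adjusted p = 0.98) after rises of 1.39 ± 0.15 and 1.28 ± 0.15.

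Rpn2, another subunit of the complex, did differ. It was at 9.86, 10.25 and 10.38 in wild-type vehicle and 10.33, 10.37 and 10.29 in Atf6a-/- vehicle animals, then at 11.37, 11.11 and 11.21 in wild-type TM and 10.57, 10.69 and 10.58 in Atf6a-/- TM animals. Every Atf6a-/- TM animal lay below every wild-type TM animal and above every vehicle animal. The wild-type rise was 1.07 ± 0.13 (adjusted p = 0.00038), the Atf6a-/- response was 0.28 ± 0.13 (adjusted p = 0.13), the TM livers differed by -0.62 ± 0.13 (adjusted p = 0.0040), and the interaction was -0.79 ± 0.18 (adjusted p = 0.014). The difference between TM livers lay close to the 1.5-fold limit. Its call was not kept under every scaling or with every single animal left out, whereas the interaction call was kept under all of these. Rpn1 was at 1.37 ± 0.15 and 0.91 ± 0.15, both called, with -0.49 ± 0.15 between TM livers (adjusted p = 0.034), which is under 1.5-fold, while 1 of its 5 other probe sets was called lower there (-0.64) and another gave -0.18 and -0.35 for the responses, neither called. Dad1 rose by 0.85 ± 0.13 and 1.20 ± 0.13. Tusc3, an oxidoreductase of the complexes with Stt3b, rose in Atf6a-/- livers (0.68 ± 0.21, adjusted p = 0.027) and was at 0.16 ± 0.21 in wild-type livers.

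Trimming begins with glucosidases. Mogs, glucosidase I, rose by 1.12 ± 0.18 and 1.19 ± 0.18. The subunits of glucosidase II gave unlike values. Prkcsh, the beta subunit that keeps the enzyme in the ER, was at 10.03, 9.93 and 10.05 in wild-type vehicle, 9.96 to 10.05 in Atf6a-/- vehicle, 11.14, 11.20 and 11.10 in wild-type TM and 10.44, 10.60 and 10.58 in Atf6a-/- TM animals. The Atf6a-/- TM animals lay between vehicle and wild-type TM with no overlap on either side. Prkcsh rose by 1.14 ± 0.08 in wild-type livers (adjusted p = 1.8e-05), and its Atf6a-/- response was 0.54 ± 0.08 (adjusted p = 0.00031), 1.45-fold and so not called. The TM livers differed by -0.61 ± 0.08 (adjusted p = 0.00027) and the responses by -0.61 ± 0.12 (adjusted p = 0.0057). Both values lay close to the 1.5-fold limit, and both calls were lost without wild-type TM animal 2. Ganab, the catalytic alpha subunit, was at 0.44 ± 0.10 in wild-type livers (adjusted p = 0.017, 1.36-fold and not called) and rose by 0.80 ± 0.10 in Atf6a-/- livers (adjusted p = 5.3e-05), with an interaction of 0.35 ± 0.14 (adjusted p = 0.15).

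Uggt1, the folding sensor that puts a glucose back on misfolded glycoproteins, was at 8.08, 8.48 and 8.68 in wild-type vehicle and 8.70, 8.61 and 8.58 in Atf6a-/- vehicle animals. After TM it was at 10.001 to 10.13 in wild-type and 9.42, 9.60 and 9.58 in Atf6a-/- animals, so that the Atf6a-/- TM animals again lay between the vehicle and wild-type TM animals. The rise was 3.12-fold in wild-type livers (1.64 ± 0.13, adjusted p = 3.6e-05) against 1.87-fold in Atf6a-/- (0.91 ± 0.13, adjusted p = 0.00022), and the interaction was -0.74 ± 0.19 (adjusted p = 0.027). Its second probe set gave 1.32 in wild-type, -0.17 in Atf6a-/- livers, not called, and an interaction of -1.50 (adjusted p = 0.0027). Man1b1, a mannosidase that marks misfolded glycoproteins for disposal, rose by 1.08 ± 0.23 and 0.79 ± 0.23. Man1a, a Golgi mannosidase, was at 0.07 ± 0.16 and -0.57 ± 0.16 and was not called, although its other probe set was lower in Atf6a-/- livers (-1.11, adjusted p = 0.00069). Of the branching enzymes of the Golgi, Mgat2 rose by 0.92 ± 0.21 and 1.00 ± 0.21 (the first not called without wild-type TM animal 2) and Mgat1 was at 0.08 ± 0.12 and 0.06 ± 0.12. Another bright probe set of Mgat2 was not called in the wild-type response.

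**Figure D4:**
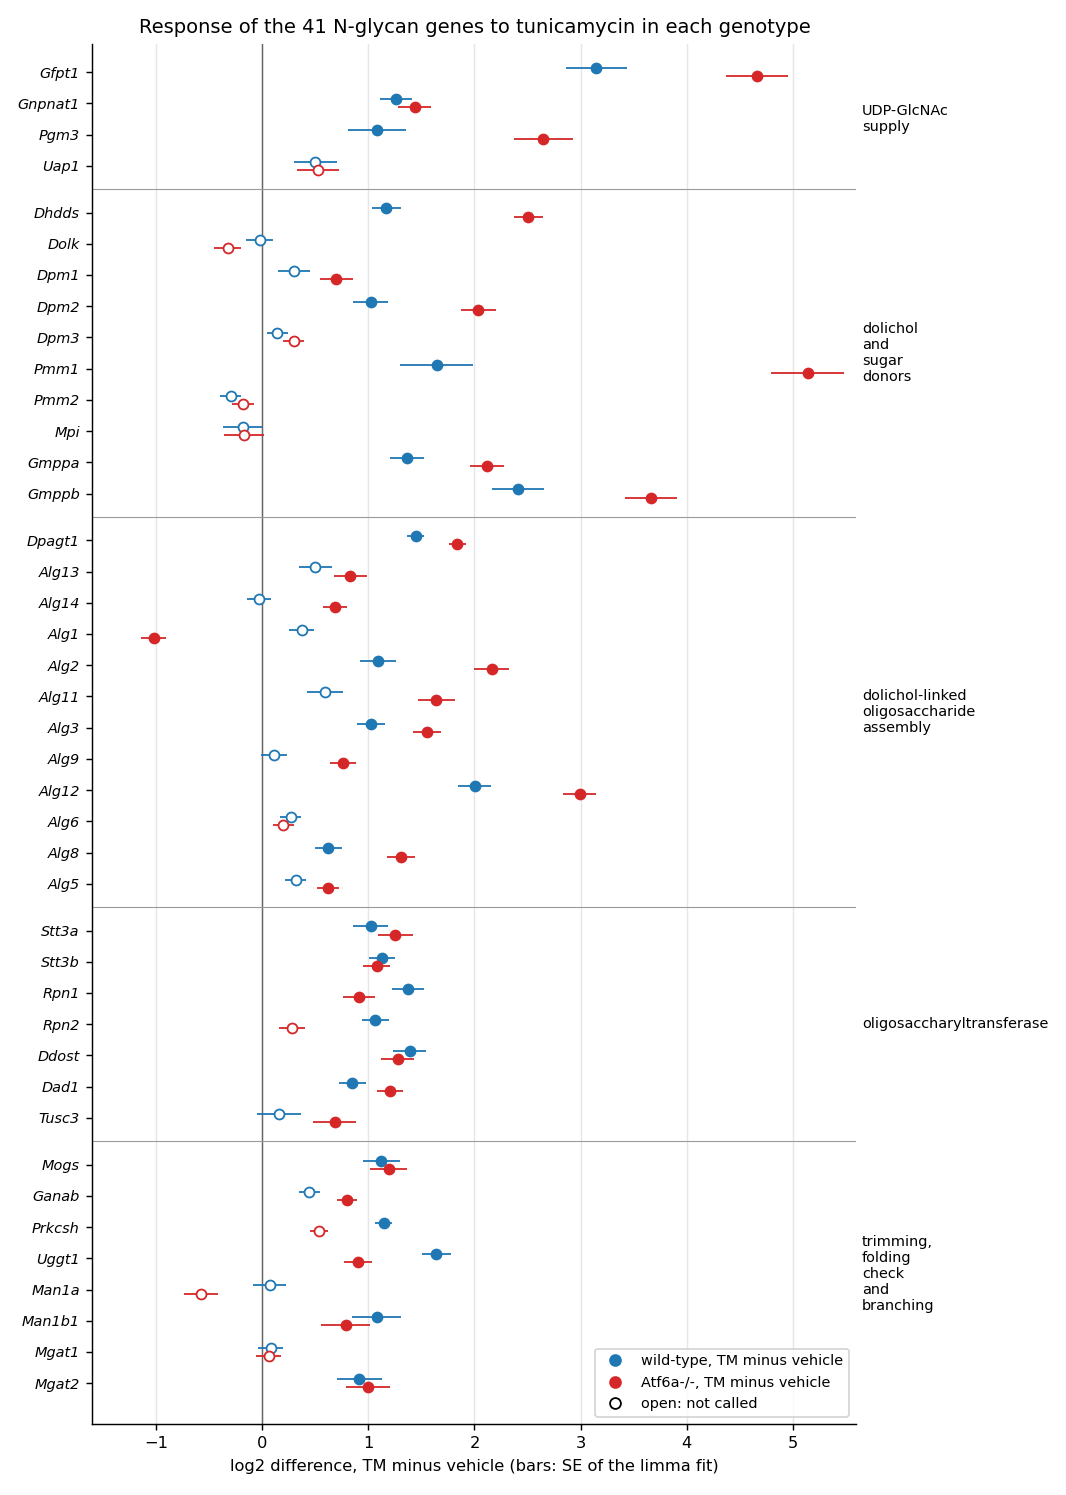
Log2 difference between TM and vehicle for each member in wild-type (blue) and Atf6a-/- (red) livers, with SE bars and filled points for called values, in pathway order from top to bottom. Red lies right of blue for most genes of the 3 upper steps, and in the 2 lower steps blue lies right of red for 4 of 7 and 5 of 8 genes, by most for Rpn2 and Uggt1.

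**Figure D5:**
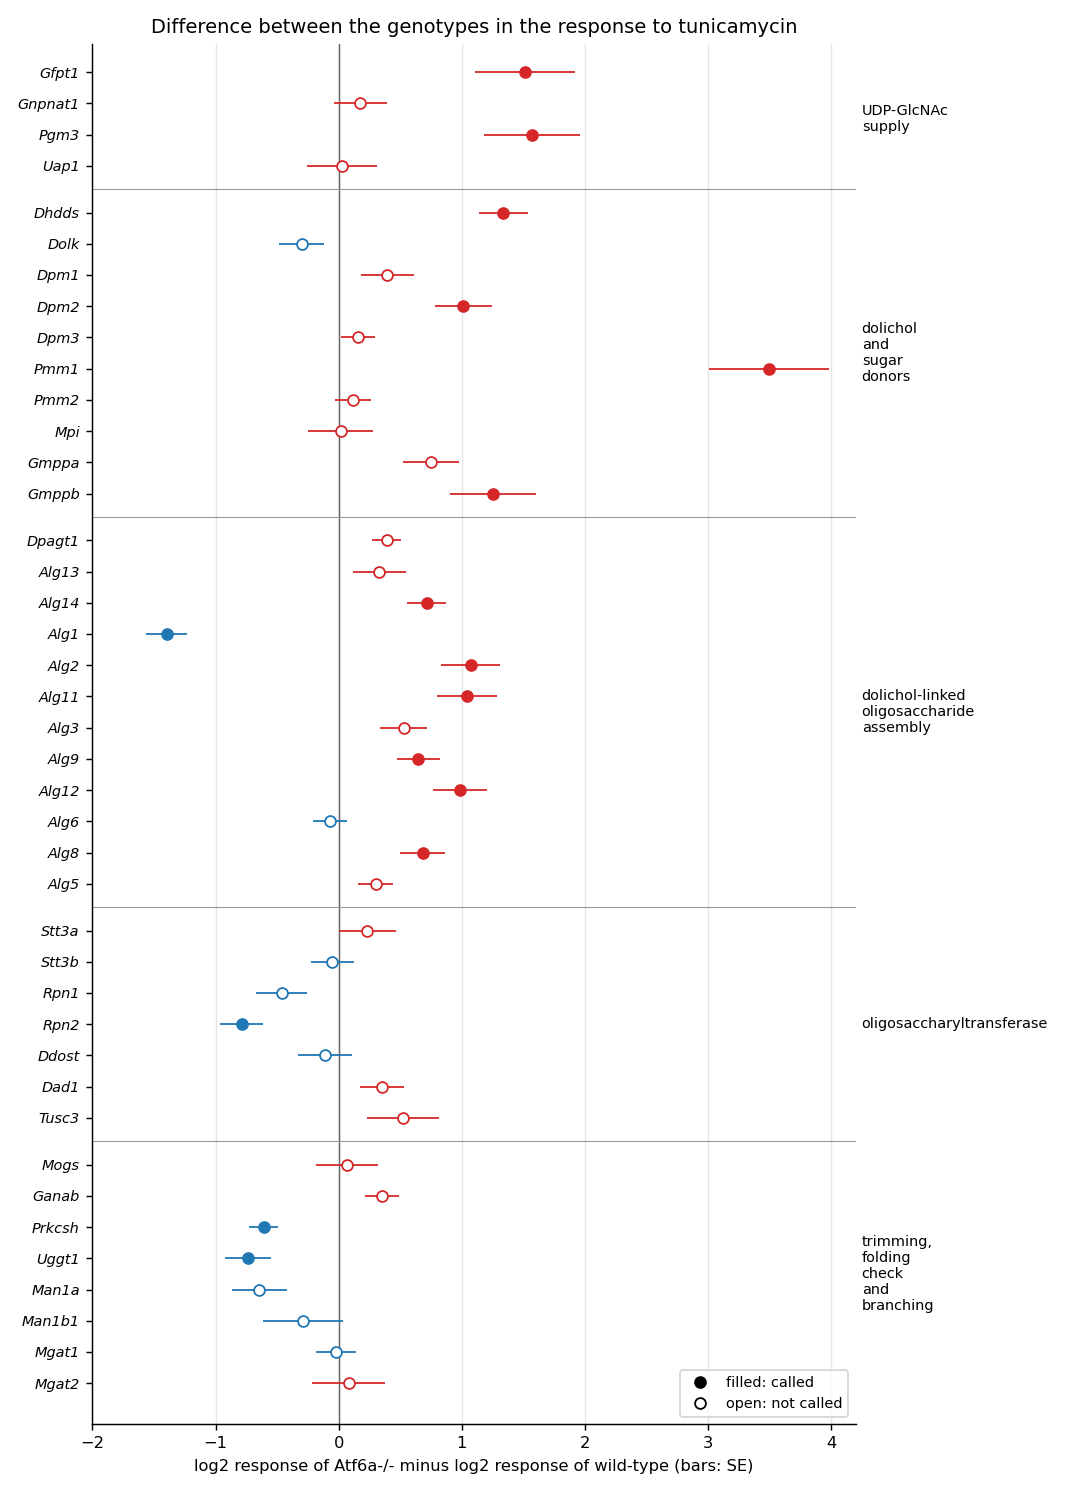
Atf6a-/- response minus wild-type response for each member (log2, with SE bars), red above 0 and blue below, filled where called. All 12 filled red points are in the 3 upper steps, Pmm1 is farthest right at 3.50, and the 4 filled blue points are Alg1, Rpn2, Prkcsh and Uggt1.

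Further genes of the pathway are not among the 41. Of 31 measured, 8 were called higher and 1 lower in wild-type livers and 9 higher and 4 lower in Atf6a-/- livers, with median differences of -0.02 and 0.13. Among all genes 3.45% were called higher and 3.86% lower in wild-type livers, and 15.2% and 12.8% in Atf6a-/- livers. The 5 remaining oligosaccharyltransferase subunits accounted for 4 of the 8 and 5 of the 9. Ostc rose by 1.27 ± 0.17 and 1.24 ± 0.17 and Magt1 by 1.26 ± 0.14 and 0.88 ± 0.14. The small subunits Krtcap2 and Ost4 rose more in Atf6a-/- livers, by 2.07 ± 0.12 and 1.57 ± 0.14 against 1.22 ± 0.12 and 0.44 ± 0.14 (the last not called, adjusted p = 0.11), with interactions of 0.85 ± 0.17 and 1.13 ± 0.20 (adjusted p = 0.0081 and 0.0042). After TM, 2 of the 5 subunits were called higher in Atf6a-/- than in wild-type livers (Ost4 by most, 1.09) and 0 lower. Of 7 further genes of supply and dolichol-linked synthesis, 1 was called higher there and 0 lower. Among all genes these shares were 11.3% and 8.45%. The interaction median of those 7 genes was 0.14, with 1 called higher and 1 lower, where 7.56% and 6.69% of all genes were.

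Nagk, a kinase that salvages N-acetylglucosamine, was at 7.83, 7.70 and 7.70 in wild-type vehicle, 7.76, 7.47 and 7.59 in Atf6a-/- vehicle, 7.40, 7.28 and 7.06 in wild-type TM and 8.52, 8.46 and 8.59 in Atf6a-/- TM animals. The wild-type TM animals were the lowest and the Atf6a-/- TM animals the highest of all. It rose by 0.92 ± 0.11 in Atf6a-/- livers (adjusted p = 4.1e-05), was at -0.50 ± 0.11 in wild-type livers (adjusted p = 0.017, under 1.5-fold) and had an interaction of 1.42 ± 0.15 (adjusted p = 0.00019). Among 18 lectins and later trimming and branching genes, 3 were called higher and 1 lower in wild-type livers, and 2 higher and 3 lower in Atf6a-/- livers. The Atf6a-/- shares, 11.1% higher and 16.7% lower, lay near those of all genes, 15.2% and 12.8%. In wild-type livers 3.45% of all genes were higher and 3.86% lower. Fut8, the core fucosyltransferase, fell by 0.77 in wild-type livers (SE 0.18, adjusted p = 0.027). Man2a1, a Golgi mannosidase, was at 11.26, 11.04 and 11.17 in wild-type vehicle, 11.45, 11.23 and 10.84 in Atf6a-/- vehicle, 11.42, 10.84 and 11.17 in wild-type TM and 9.62, 9.51 and 10.03 in Atf6a-/- TM animals, and the last group lay below all others. It fell by 1.46 in Atf6a-/- livers (SE 0.19, adjusted p = 8.2e-05), where the sialyltransferase St6gal1 fell by 1.41 (SE 0.31, adjusted p = 0.0038). Engase, which frees glycans in the cytosol, was 0.94 lower in the interaction (-0.94 ± 0.27, adjusted p = 0.043).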

How the data were processed

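Liver RNA was measured on Affymetrix arrays, and the values were used as deposited: log2 levels that the authors made with RMA, for which their processing notes name affy and limma without versions. Of 45101 features, 64 control probe sets were left out, and limma 3.58.1 in R 4.3.3 was run on the 45037 others with 1 mean per group and 5 contrasts, two-sided tests and Benjamini-Hochberg adjustment over all of them. The script was tested on simulated data. The platform table gave 1 symbol for 34945 probe sets, several for 932 and none for 9160, and probe sets with several or none stand for no gene. All called members were named, with Dpagt1, the member with the largest difference in a step without calls, and up to 2 rises and 2 falls among other pathway genes. The members, lists and rules were chosen with earlier results of these data known. The animals are separate, and 3 per group limit the precision. Array probe sets have no counts, so no depth applies. Alternatives were other scalings, variance models, probe set rules, folds, the methods' t-test, Xist as a covariate, a replicate block and each animal left out. Numbers shared between groups were not used to pair the animals in the main fit. Figures were drawn with matplotlib 3.10.9.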

Additional observations from a re-analysis of the deposited data

Results flagged for a closer look

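For 16 of the 41 members the response to TM differed between genotypes by the test of the difference itself, the Atf6a-/- response minus the wild-type response on the log2 scale. In UDP-GlcNAc supply these were Gfpt1 (1.52) and Pgm3 (1.57). Among the sugar donors they were Dhdds (1.34), Dpm2 (1.01), Pmm1 (3.50) and Gmppb (1.25), and in assembly Alg14 (0.72), Alg2 (1.07), Alg11 (1.05), Alg9 (0.65), Alg12 (0.99), Alg8 (0.68) and Alg1 (-1.40). In the late steps they were Rpn2 (-0.79), Prkcsh (-0.61) and Uggt1 (-0.74). Among all genes 7.56% had a higher and 6.69% a lower response by the same test. With 3 animals a group, single animals far from the others of their group were not tested for.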

How the results depend on the processing

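Limits: 3 animals a group, sex and age unknown for each, whole tissue, and a scale on which no gene is known to be constant. No called member changed sign under any alternative. Apart from the choice of fold, calls that held under every alternative numbered 18 of 31 in Atf6a-/- livers, 3 of 18 between genotypes after TM and 4 of 16 in the interaction (Alg1, Dhdds, Pmm1 and Rpn2). In wild-type livers 0 of 24 held with the methods' t-test, whose smallest adjusted p was 0.0519, and 19 of 24 (all but Pgm3, Pmm1, Alg8, Man1b1 and Mgat2) held apart from it.

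With the Btf3 and Ppia shift, Atf6a-/- livers had 18 members higher, 5 lower and a median of 0.40. The genotype comparison after TM had 8 higher, 8 lower and a median of -0.056, and the interaction 4 higher and a median of -0.14. With the spike-in shift the medians were 1.37 in wild-type and 1.39 in Atf6a-/- livers, where 0 were lower, 0.58 between genotypes, where 1 was lower, and 0.43 in the interaction, where 2 were lower. In Atf6a-/- livers 2 members were lower with repeated quantile normalization, cyclic loess, the mean of all probe sets or no minimum fold, and 19 were higher over 2-fold. The methods' t-test with adjustment called 0 members higher in wild-type livers (23 unadjusted at the study's threshold) and 2 higher between genotypes after TM (16 unadjusted). There 6 were lower with no minimum fold, and 8 higher and 1 lower over 2-fold. The interaction had a median of 0.16 with the mean of all probe sets and 1 member lower over 2-fold. The cause of these differences was not tested, apart from the fold itself.

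With 1 animal left out, wild-type livers had medians of 0.79 to 1.07 and Atf6a-/- livers medians of 0.87 to 1.08 with 1 to 2 lower. Between genotypes after TM 2 to 5 were lower, and in the interaction 7 to 14 were higher and 2 to 5 lower. Atf6 between the TM groups turned to -0.041 with repeated quantile normalization, -0.062 with cyclic loess and -0.39 with the Btf3 and Ppia shift, and ranged from -0.093 to 0.20 with 1 animal left out. The interaction of Dpagt1 turned to -0.050 with the Btf3 and Ppia shift. That of Mfsd2a turned to 0.083 with the spike-in shift and ranged from -0.55 to 0.61 with 1 animal left out.

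Replicate numbers were not used as pairs in the main fit. Of 18 pairs of equal number, 8 correlated over 0.1, with a range of -0.18 to 0.37 and a median of 0.09. Pairs of unequal number ran from -0.35 to 0.22. Pairs among the animals 1 with high Xist gave 0.37, 0.21 and 0.18. These correlations do not settle whether equal numbers pair the animals. With the replicate block the counts were 24 higher in wild-type livers, 30 higher and 1 lower in Atf6a-/- livers, 16 higher and 3 lower between genotypes after TM, and 12 higher and 4 lower in the interaction. The block gave Tusc3 a call between genotypes (adjusted p = 0.031) and, in the interaction, called Gmppa (0.037) and no longer Gmppb (0.056). With Xist as a covariate they were 23, then 30 and 1, then 16 and 2, then 11 and 4.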
